A study of Rattus norvegicus with 6 samples.

Results

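The genes described here encode histone methyltransferases, which place methyl groups on lysines and arginines of histone tails, histone demethylases, which take them off, and the shared subunits that hold some of these enzymes together. They were chosen by gene symbol (the Kdm, Kmt, Setd, Setdb, Nsd, Ezh, Ehmt, Suv39h, Smyd, Prmt and Jmjd families with Eed, Suz12, Dot1l, Ash1l, Ash2l, Wdr5 and Hr). The rule itself uses no values, but it was set with earlier results of these data known. The rule found 64 of the 17273 genes in the deposited table, and 61 of them had enough reads to be tested, among 13747 genes tested in all. RNA was sequenced from nucleus pulposus cells, which fill the soft core of the intervertebral disc, of wild-type male Sprague Dawley rats. The control group is 3 libraries of untreated cells, and the lactate group is 3 libraries of cells given 10 mM lactate for 8 h. All 6 libraries share the culture medium with serum, the strain and the sex, and no label names a transgene. The labels give neither the age of the rats nor the form of lactate used, and they do not tell cultures or animals apart within a group, so p-values measure only the spread between libraries, which may be technical.

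Methylation at a given lysine is set by the balance of a few writers and erasers, and its meaning depends on the site. H3K4 methylation marks active promoters and enhancers, H3K36 and H3K79 methylation mark transcribed gene bodies, and H3K9, H3K27 and H4K20 methylation mark silent or compacted chromatin. Writers draw their methyl group from S-adenosylmethionine. Most erasers carry a JmjC domain and need iron, oxygen and 2-oxoglutarate, while KDM1A and KDM1B use a flavin.

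The control libraries held 33584741 to 38989574 counts and the lactate libraries 30291357 to 35512356. The 64 genes together took 0.312% ± 0.0124 of control counts and 0.215% ± 0.0333 of lactate counts (SD, n = 3). The libraries differ in composition: TMM factors, which put the bulk of genes on a common level, were 1.33 to 1.36 in control and 0.702 to 0.806 in lactate. Levels below are normalised read counts (CPM) on this TMM scale, and changes are given as the log2 fold change from control to lactate, ± its standard error (SE). When libraries were scaled by their totals alone, the median log2 fold change of all tested genes moved from -0.10 to -0.96, so every direction below is read against the bulk of genes, and the library-total value is given where it changes the direction. In bulk RNA, fewer cells of a type and less RNA per cell cannot be told apart.

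The cell labels were compared with marker genes. Aggrecan (Acan), a main matrix proteoglycan of the nucleus pulposus, was abundant, and the summed level of the 13 nucleus pulposus and notochord markers in the table was 2546 to 2855 CPM in control and 2467 to 2805 CPM in lactate. Most of that sum is Acan, which was not called, at 2390 CPM in control and 2289 CPM in lactate. Of the 11 tested, 3 were higher, 3 lower and 5 not called. Cd24, Sox9 and Ca12 were higher, with log2 fold changes of 2.32, 1.45 and 1.58. Ca12 was low, at 0.225 CPM in control and 0.681 CPM in lactate. With library totals Cd24 was still called (1.46), while Sox9 (0.56) and Ca12 (0.74) were not. Foxa2, Cdh2 and Pax1 were lower, with -1.97, -1.11 and -0.88. Besides Acan, Ca3 and Krt8 were not called, at 20.7 and 7.03 CPM in control and 17.7 and 5.56 CPM in lactate. Col2a1 and Foxa1 were low and not called, at 0.279 and 0.290 CPM in control and 0.746 and 0.357 CPM in lactate. The untested notochord markers Tbxt and Krt19 had 12 and 9 counts over the control libraries and 0 over the lactate libraries. The 6 annulus fibrosus and fibroblast markers summed to 30178 to 35963 CPM in control and 102064 to 146629 CPM in lactate, with 3 higher, 2 lower and 1 not called. Nearly all of that sum is Col1a1, at 31743 CPM in control and 124329 CPM in lactate. On the log2 scale Thy1 and S100a4 rose too, by 1.24 and 1.11, while Pdgfra and Mkx fell by 1.42 and 2.36. The 4 macrophage markers summed to 9.60 to 10.6 CPM in control and 4.09 to 5.39 CPM in lactate. Of the 2 tested, Cd14 fell, from 9.36 to 2.84 CPM, and carries the sum, while Cd68 rose, from 0.528 to 1.47 CPM. Of the untested, Csf1r went from 0.161 to 0.487 CPM, and Adgre1 had 4 counts in control and 0 in lactate. The 3 endothelial markers stayed under 1 CPM in sum in every library. The part of these shifts in the results below was not tested.

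Of the 61 tested genes, 21 were higher in lactate, 23 were lower and 17 were not called at an adjusted p under 0.05 (edgeR's quasi-likelihood test). That is 34.4% higher and 37.7% lower, beside 31.4% higher and 34.6% lower among all tested genes (66% called in either direction), so the counts over the whole set are near the background. The groups did not overlap for 43 of the 61 genes (20 with lactate above, 23 with control above), which is 70.5% beside 72.2% of all genes. A change of at least 2-fold was called for 10 genes higher and 11 lower, beside backgrounds of 18.1% and 22.5%. The median log2 fold change was -0.06 for the members and -0.10 for all genes.

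Scaling and transcript length shift these counts. With library totals, 6 members were higher and 40 lower, beside 12.5% and 61.8% of all genes (74.3% in either direction). On log2(FPKM + 1), which is scaled by library totals too, 7 members were higher and 40 lower, beside 13% and 63.7% (76.7% in either direction; limma-trend). The members are long: 39 of 61 fall in the longest 40% of genes by the length implied by the deposited counts and FPKM, and among those longer genes 24.5% of genes were higher and 45.1% lower. After a trend of fold change on length was removed, 24 members were higher and 16 lower, beside 28.7% and 35.7% of all genes (64.3% in either direction). The 6 genes that were higher in all 3 of these fits were Dot1l, Setd5, Kdm3a, Kmt5c, Jmjd6 and Kdm1a, and 16 genes were lower in all 3.

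**Figure D1:**
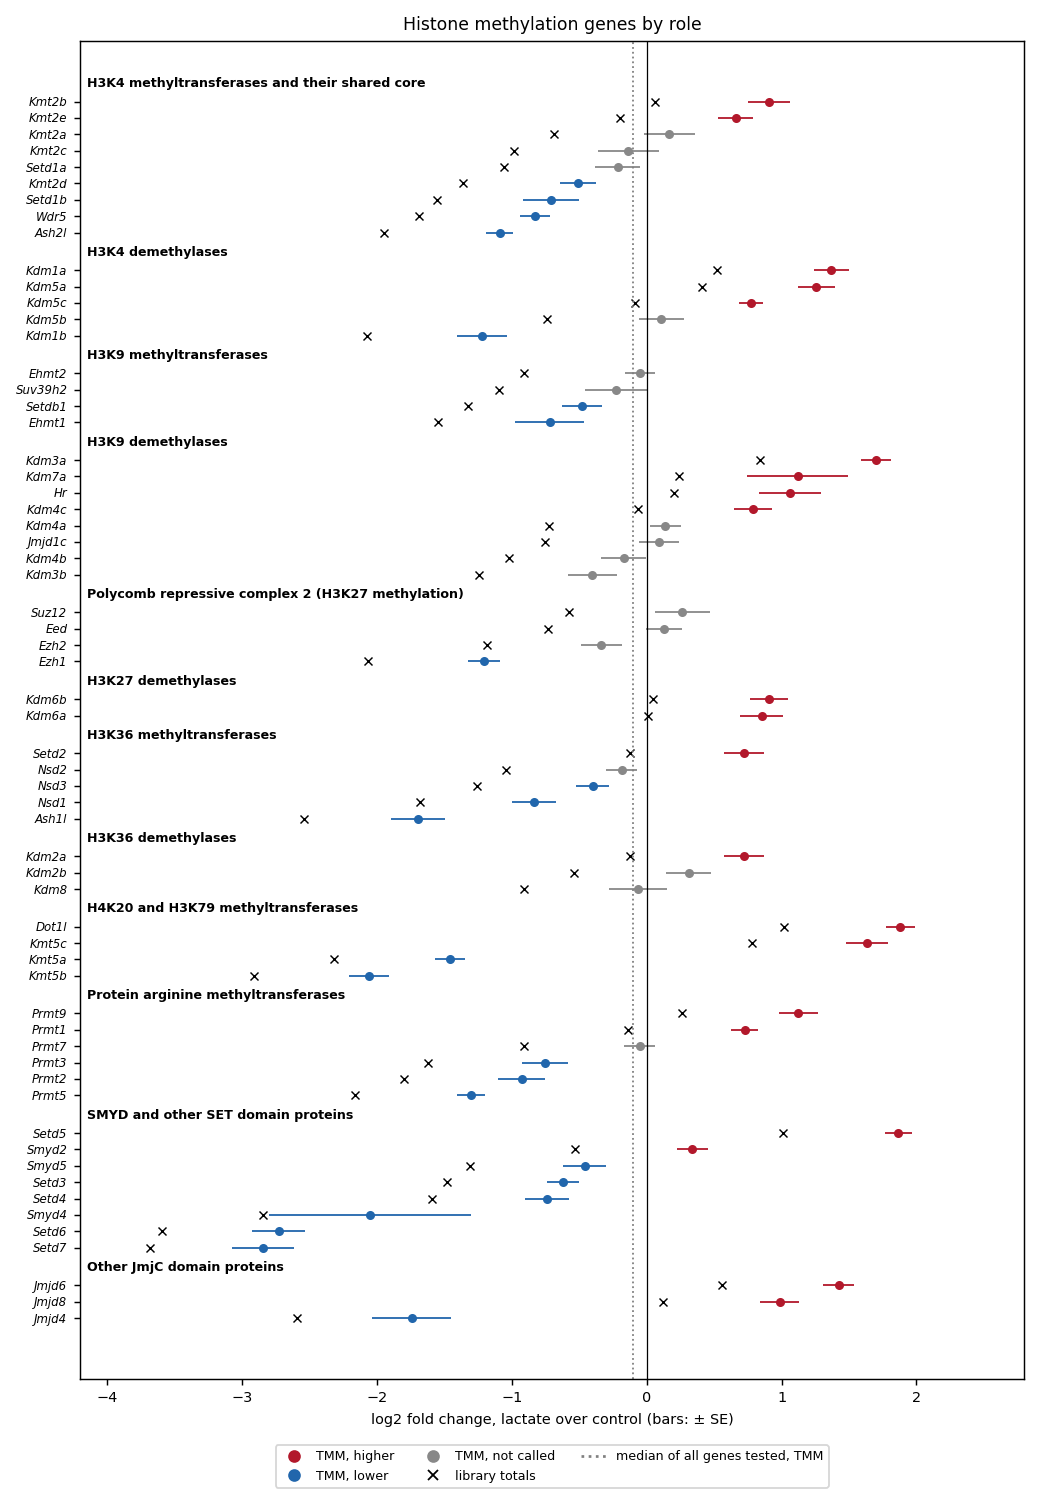
Log2 fold change of lactate over control for the 61 tested genes, by role of the product (points: TMM scaling, with bars of ± SE; crosses: library totals). Points right of 0 in red were called higher (21 genes), points in blue lower (23 genes) and points in grey were not called; the crosses lie to the left of the points.

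The lysine demethylases and the lysine methyltransferases split differently between the directions. Of the 18 tested members in the demethylase roles for H3K4, H3K9, H3K27 and H3K36, 10 were higher, 1 was lower (Kdm1b) and 7 were not called, with a median log2 fold change of 0.75. Of the 26 tested members in the lysine methyltransferase roles for H3K4, H3K9, H3K27, H3K36, H3K79 and H4K20, 5 were higher, 12 lower and 9 not called, with a median of -0.28. These roles also count core subunits that are not the catalytic ones: Ash2l and Wdr5 (both lower), and Eed and Suz12 (neither called). They count Kmt2e (higher) too, whose product lacks a clear H3K4 activity. The demethylase roles follow what textbooks give for each product, and no activity was measured. They count the corepressor gene Hr (higher) and Kdm8 (not called). With library totals the demethylases had 2 higher and 8 lower, with a median of -0.10, and the methyltransferases 2 higher and 20 lower, with a median of -1.14. With the length trend removed the demethylases had 13 higher and 1 lower (median 0.86), and the methyltransferases 6 higher and 6 lower (median -0.17). Shares of 55.6% higher and 5.56% lower for the demethylases, and of 19.2% higher and 46.2% lower for the methyltransferases, stand beside 31.4% and 34.6% of all genes and 24.5% and 45.1% of the longest 40%. The methyltransferase counts are thus near those of long genes. The difference between these roles was not tested. Their median lengths lie at percentiles 86.4 and 87.8 of all tested genes.

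Among the writers of H4K20 and H3K79 methylation, 2 genes rose and 2 fell, and all 4 calls were the same with library totals and after removal of the length trend. DOT1L is the methyltransferase of H3K79. Its gene read 38.2, 38.4 and 44.6 CPM in control libraries 1 to 3 and 157, 148 and 142 CPM in lactate libraries 1 to 3. The 2 groups are far apart, and Dot1l rose by 1.88 ± 0.11 (adjusted p = 2.9e-06), or 1.02 with library totals. KMT5A places the first methyl group on H4K20, and KMT5B and KMT5C add the next ones. Kmt5a read 44.0, 44.6 and 49.0 CPM in control and 16.2, 17.6 and 16.2 CPM in lactate, a fall with no overlap (log2 fold change -1.46 ± 0.11, adjusted p = 9e-06).

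The paralogs Kmt5b and Kmt5c went in opposite directions. Kmt5b read 26.2, 29.2 and 23.6 CPM in control and 5.94, 5.97 and 7.06 CPM in lactate (log2 fold change -2.06 ± 0.15, adjusted p = 7.8e-06). Kmt5c read 8.09, 9.45 and 7.72 CPM in control and 22.1, 28.2 and 28.2 CPM in lactate (1.63 ± 0.16, adjusted p = 3.2e-05). Neither gene's groups overlap. The ratio of Kmt5b to Kmt5c counts within a library, which no library scaling can change, was 3.24, 3.09 and 3.06 in control and 0.268, 0.212 and 0.251 in lactate.

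The promoters of these genes are shown because the family moved in both directions, with those of Kdm4c and Prmt9 added for the motifs they hold; the genes were picked after their values were seen. Sequences are from RefSeq, assembly GRCr8, matched by symbol, and cover the 250 bases before the gene start, 5′ to 3′ on the gene's strand, with motif matches in capitals. The windows are chr7:9607096-9607345 (minus strand) for Dot1l, chr1:210429422-210429671 (plus) for Kmt5b, chr1:78135932-78136181 (minus) for Kmt5c, chr5:93146787-93147036 (plus) for Kdm4c and chr19:47318683-47318932 (minus) for Prmt9.
Dot1l: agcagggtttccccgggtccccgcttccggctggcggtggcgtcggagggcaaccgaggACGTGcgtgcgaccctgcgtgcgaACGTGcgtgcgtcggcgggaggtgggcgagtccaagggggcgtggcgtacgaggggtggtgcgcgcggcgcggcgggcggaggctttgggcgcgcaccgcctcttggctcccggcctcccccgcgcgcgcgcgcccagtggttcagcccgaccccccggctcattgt
Kmt5b: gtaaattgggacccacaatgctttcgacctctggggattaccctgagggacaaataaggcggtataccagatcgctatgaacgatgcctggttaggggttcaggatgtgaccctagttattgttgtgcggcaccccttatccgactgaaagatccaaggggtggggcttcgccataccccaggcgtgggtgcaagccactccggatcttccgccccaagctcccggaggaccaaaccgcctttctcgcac
Kmt5c: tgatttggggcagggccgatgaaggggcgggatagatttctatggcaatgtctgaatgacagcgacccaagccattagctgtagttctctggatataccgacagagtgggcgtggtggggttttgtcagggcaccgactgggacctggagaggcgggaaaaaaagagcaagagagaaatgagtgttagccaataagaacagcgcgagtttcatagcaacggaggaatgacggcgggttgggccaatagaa
Kdm4c: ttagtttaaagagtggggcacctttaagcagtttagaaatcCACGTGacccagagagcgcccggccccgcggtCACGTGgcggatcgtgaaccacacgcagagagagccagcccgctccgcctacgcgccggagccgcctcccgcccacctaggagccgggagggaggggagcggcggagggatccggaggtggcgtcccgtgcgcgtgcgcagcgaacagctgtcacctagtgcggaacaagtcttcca
Prmt9: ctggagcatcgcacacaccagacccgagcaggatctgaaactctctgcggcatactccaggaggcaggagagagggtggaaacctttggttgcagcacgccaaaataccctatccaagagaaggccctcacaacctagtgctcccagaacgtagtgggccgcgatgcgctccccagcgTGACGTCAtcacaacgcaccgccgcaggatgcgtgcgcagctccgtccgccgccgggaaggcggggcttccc
The capitals mark ACGTG, the core of the hypoxia response element, at -191 and -167 from the start of Dot1l. In Kdm4c they mark the E-box CACGTG at -209 and -177, and in Prmt9 the cAMP response element TGACGTCA at -72. Members that were not called higher hold these motifs too. CACGTG also lies in the windows of Smyd4 (called lower), Ehmt2 and Kdm4b (neither called), and TGACGTCA in that of Suv39h2 (not called). None of the motifs searched lies in the windows of Kmt5b and Kmt5c.

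Motif shares over the members are set beside those over other promoters as a description. A window from 250 bases before to 50 bases after the start was found for 48 of the 64 members, 12 had none, and 4 symbols with several windows were left out. On either strand, ACGTG was in 11 of 48 members' windows (22.9%), in 26.3% of the windows of 8821 tested genes and in 19.3% of all 33469 windows. It was in 3 of 15 windows of members called higher and 2 of 16 of members called lower. CACGTG, which contains ACGTG on both strands, was in 8.33% of members, 9.69% of tested genes and 6.42% of all windows. The corresponding shares were 4.17%, 3.17% and 1.83% for TGACGTCA, 4.17%, 4.73% and 7.33% for the AP-1 site TGANTCA, and 4.17%, 6.60% and 8.77% for the heat shock unit TTCNNGAA. The ATF4 and CHOP element TGATGNAA and the ER stress response element were in 0 members' windows, beside 2% and 0.17% of tested genes. An observed over expected CpG ratio above 0.6 was found in 95.8% of members' windows, 75.8% of those of tested genes and 34.3% of all. A match is a description of letters and not a bound site.

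The H3K4 writers and their core subunits were mixed. Of the 9 tested genes, 2 were higher, 4 lower and 3 not called (0 higher and 7 lower with library totals). WDR5 and ASH2L are 2 of the core subunits that the COMPASS and MLL complexes share. Wdr5 read 51.1, 44.1 and 46.6 CPM in control and 28.4, 24.5 and 27 CPM in lactate (log2 fold change -0.83 ± 0.11, adjusted p = 0.00023). Ash2l fell by 1.09 ± 0.10 (adjusted p = 2.8e-05), and neither gene's groups overlap. Among the catalytic subunits, Kmt2d, which primes enhancers, read 101, 125 and 127 CPM in control and 76.8, 76.3 and 94.8 CPM in lactate (-0.51 ± 0.13, adjusted p = 0.0082), a call that was not kept once the length trend was removed (-0.18). Setd1b had -0.71 ± 0.21 (adjusted p = 0.016), likewise not called with the length trend removed.

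Kmt2a, the founding MLL gene, read 28.6, 48.5 and 46.1 CPM in control and 44.7, 44.3 and 49.5 CPM in lactate. The groups overlap, and the gene was not called with TMM (0.17 ± 0.19, adjusted p = 0.46). Library totals gave a call in the lower direction (-0.68, adjusted p = 0.015) and removal of the length trend one in the higher direction (0.80, adjusted p = 0.0056). Its closest paralog Kmt2b rose by 0.91 ± 0.15 with TMM (adjusted p = 0.00084), with 0.06 and no call with library totals. Kmt2e, whose product lacks a clear H3K4 activity, rose by 0.66 ± 0.13 with TMM (adjusted p = 0.0021) and had -0.19 with library totals, which was not called. Setd1a (-0.21) and Kmt2c (-0.14) were not called.

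Among the H3K4 erasers, 3 of 5 genes rose and 1 fell (1 higher and 2 lower with library totals). KDM1A, also named LSD1, takes methyl groups off H3K4 with a flavin. Kdm1a read 49.3, 49.6 and 46.7 CPM in control and 110, 117 and 149 CPM in lactate, a rise with no overlap (1.37 ± 0.13, adjusted p = 3e-05, 0.52 with library totals). Its paralog Kdm1b moved the other way, from 6.69, 7.38 and 7.06 CPM to 2.95, 2.87 and 3.25 CPM (-1.22 ± 0.18, adjusted p = 0.00041). The KDM5 enzymes are JmjC demethylases of trimethylated H3K4. Kdm5a rose from 42.2, 46.3 and 40.7 CPM to 86.5, 103 and 120 CPM (1.26 ± 0.14, adjusted p = 6.1e-05), with 0.41 and no call with library totals. Kdm5c rose by 0.77 ± 0.09 (adjusted p = 9.7e-05), and had -0.083 with library totals. For Kdm5b the groups overlap, with 36.4, 40.8 and 36.3 CPM in control and 36.3, 33.9 and 52.0 CPM in lactate (0.11 ± 0.17, adjusted p = 0.60; called lower with library totals, at -0.74).

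**Figure D2:**
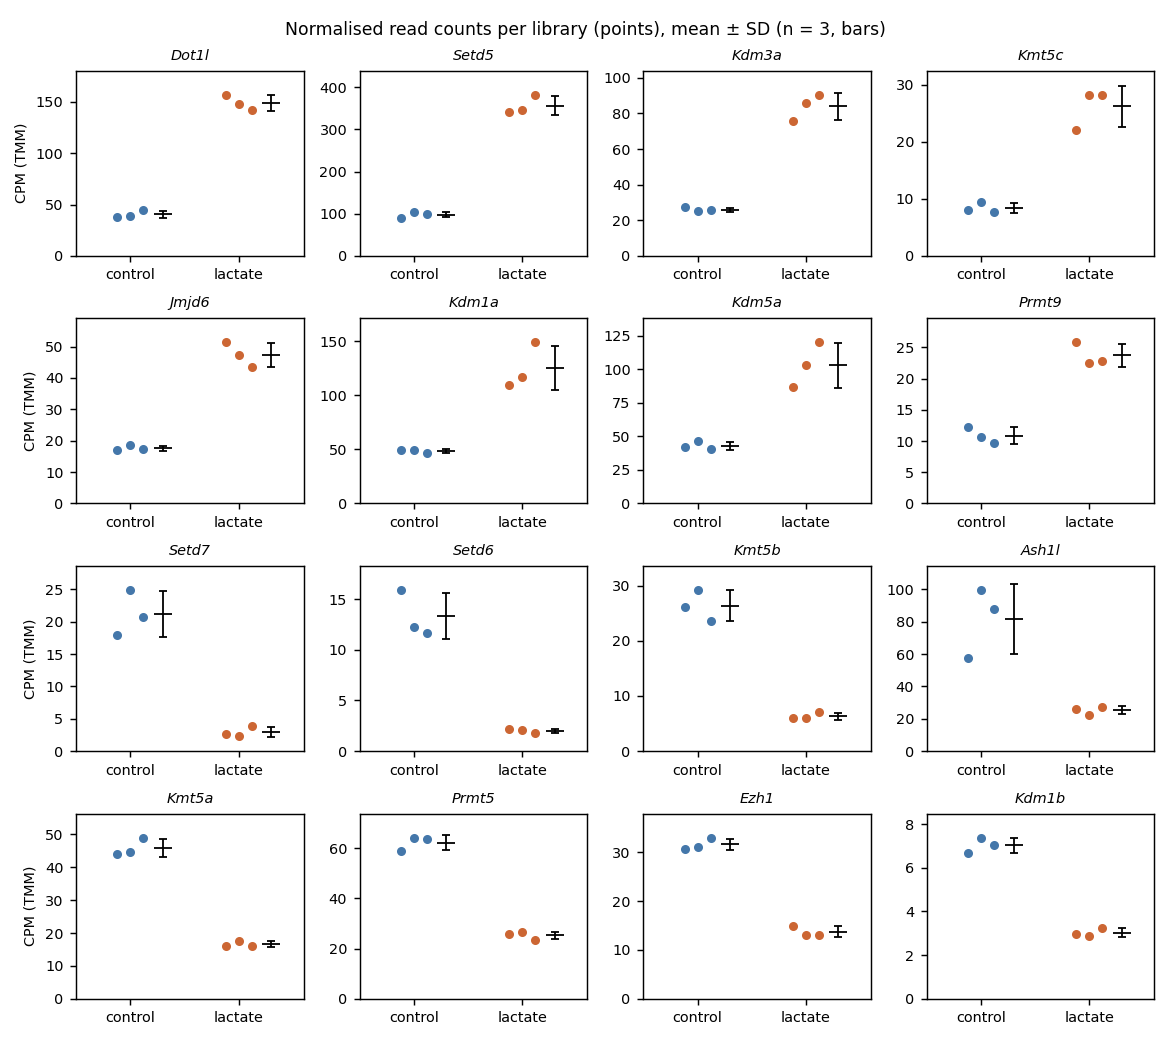
Normalised read counts (CPM, TMM scaling) per library for 16 of the genes with the largest called changes, with points for libraries and bars for the mean ± SD (n = 3 per group). The 8 genes in the upper rows have every lactate library above every control library, and the 8 in the lower rows the reverse.

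Of the 4 tested H3K9 writers, 2 fell and 2 were not called. Setdb1, which silences repeats with TRIM28, read 34.1, 37.8 and 33.8 CPM in control and 21.8, 23.4 and 30.6 CPM in lactate (-0.48 ± 0.15, adjusted p = 0.019). EHMT1 and EHMT2 (GLP and G9a) form a dimer that dimethylates H3K9. Ehmt1 read 36, 35.8 and 35.9 CPM in control and 19.9, 13.8 and 31.7 CPM in lactate, so the lactate libraries spread widely (-0.72 ± 0.26, adjusted p = 0.035). The call for Ehmt1 was lost in 5 of the 6 fits with 1 library left out, with values from -1.06 without lactate library 3 to -0.47 without lactate library 2. Neither call was kept with the length trend removed. Ehmt2 read 92.1, 78.5 and 89.8 CPM in control and 76.8, 86.0 and 89.1 CPM in lactate, with overlap and no call (-0.05 ± 0.11, adjusted p = 0.71). Suv39h2 (-0.23) was not called. With library totals all 4 tested writers were lower.

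The H3K9 erasers rose in 4 of 8 cases, and none fell with TMM, whereas 1 was higher and 4 lower with library totals. KDM3A removes mono- and dimethylation and is a known hypoxia target. Kdm3a read 27.2, 25 and 25.5 CPM in control and 75.7, 86.1 and 90.5 CPM in lactate, with no overlap (1.70 ± 0.11, adjusted p = 4.8e-06, 0.84 with library totals). Its paralog Kdm3b had -0.40 ± 0.18 and was not called (adjusted p = 0.076). Kdm4c rose by 0.79 ± 0.14 (adjusted p = 0.0012), with -0.065 and no call with library totals. Hr, the hairless corepressor with a JmjC domain, rose by 1.06 ± 0.23 (adjusted p = 0.0031), with 0.20 and no call with library totals.

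Kdm7a read 1.29, 2.01 and 1.51 CPM in control and 4.58, 4.09 and 1.85 CPM in lactate (1.12 ± 0.37, adjusted p = 0.027). It was the only called member whose groups overlap, and lactate library 3 lies within the control range. With library totals Kdm7a had 0.24 and was not called. Kdm4a, an eraser of H3K9 and H3K36 methylation, read 56.7, 61.9 and 71.9 CPM in control and 66.1, 73.3 and 70.6 CPM in lactate, with overlap and no call (0.14 ± 0.12, adjusted p = 0.32; called lower with library totals, at -0.72). With the length trend removed Kdm4a was called higher (0.37, adjusted p = 0.022). Kdm4b (-0.17) was not called, nor was Jmjd1c with TMM (0.09), for which library totals gave a lower call (-0.75) and removal of the length trend a higher one (0.58, adjusted p = 0.0083).

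In Polycomb repressive complex 2, which writes H3K27 methylation, 1 of 4 members fell and 3 were not called (3 lower with library totals). EZH1 and EZH2 are its alternative catalytic subunits. Ezh1 read 30.7, 31.2 and 33.0 CPM in control and 15.0, 13.1 and 13.1 CPM in lactate, with no overlap (-1.21 ± 0.12, adjusted p = 3.9e-05). Ezh2 read 38.4, 33.3 and 41.0 CPM in control and 28.2, 25.3 and 35.9 CPM in lactate, with overlap through lactate library 3 (-0.34 ± 0.15, adjusted p = 0.083). Without that library Ezh2 was called (adjusted p = 0.012). The core subunits Eed and Suz12 overlap between groups. Eed read 20.1, 16.8 and 19.3 CPM in control and 19.1, 20.4 and 22.0 CPM in lactate (0.13 ± 0.13, adjusted p = 0.41; called lower with library totals, at -0.73). Suz12 read 25.9, 20.9 and 26.8 CPM in control and 26.2, 23.0 and 39.2 CPM in lactate (0.26 ± 0.20, adjusted p = 0.28, -0.58 with library totals).

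Both H3K27 erasers rose with TMM, and neither was called with library totals. Kdm6a (UTX) read 19.1, 21.3 and 20.6 CPM in control and 34.3, 30.4 and 45.6 CPM in lactate (0.85 ± 0.16, adjusted p = 0.0016, 0.01 with library totals). Kdm6b (JMJD3), an inducible gene in many cells, read 19.6, 26.0 and 22.6 CPM in control and 45.5, 45.3 and 37.6 CPM in lactate (0.91 ± 0.14, adjusted p = 0.00051, 0.04 with library totals). The groups overlap for neither gene. With the length trend removed, both had a log2 fold change of 1.11.

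Of the 5 H3K36 writers, 1 rose and 3 fell (4 lower with library totals). SETD2, which makes H3K36 trimethylation behind elongating polymerase, had a higher level in lactate with TMM. Setd2 read 67.1, 80.2 and 83.5 CPM in control and 124, 106 and 151 CPM in lactate (0.72 ± 0.15, adjusted p = 0.0025), with -0.12 and no call with library totals. Ash1l, a writer of H3K36 dimethylation, read 57.4, 99.5 and 87.7 CPM in control and 25.8, 22.5 and 27.5 CPM in lactate, with no overlap (-1.69 ± 0.20, adjusted p = 0.0001). Nsd1 had -0.84 ± 0.16 (adjusted p = 0.0019) and Nsd3 -0.40 ± 0.12 (adjusted p = 0.018), and neither was called with the length trend removed. Nsd2 read 86.8, 75.7 and 85.7 CPM in control and 72.2, 65.1 and 81.0 CPM in lactate, with overlap and no call (-0.19 ± 0.12, adjusted p = 0.18).

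Among the 3 genes in the H3K36 eraser role, Kdm2a rose by 0.72 ± 0.15 (adjusted p = 0.0025). With library totals Kdm2a had -0.12 and no call. Kdm2b was not called with TMM (0.31 ± 0.17), and library totals gave a lower call (-0.54) and removal of the length trend a higher one (0.53, adjusted p = 0.022). Kdm8 (-0.06) was not called. With library totals 2 of the 3 were lower.

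Of the 6 tested protein arginine methyltransferases, 2 rose and 3 fell (0 higher and 4 lower with library totals). PRMT1 does most asymmetric arginine dimethylation, and PRMT5 does most symmetric dimethylation. Prmt1 read 88.4, 76.5 and 75.8 CPM in control and 135, 134 and 130 CPM in lactate (0.73 ± 0.10, adjusted p = 0.00024), with -0.14 and no call with library totals. Prmt5 read 59.0, 64.2 and 63.6 CPM in control and 25.8, 26.5 and 23.6 CPM in lactate, a fall with no overlap (-1.30 ± 0.10, adjusted p = 1.2e-05). Prmt9, whose known substrate is a splicing factor, read 12.3, 10.6 and 9.65 CPM in control and 25.8, 22.5 and 22.9 CPM in lactate (1.12 ± 0.14, adjusted p = 0.00017, 0.26 and not called with library totals). Prmt2 fell by 0.93 ± 0.17 (adjusted p = 0.0015) and Prmt3, a methylase of a ribosomal protein, by 0.75 ± 0.17 (adjusted p = 0.0043), and Prmt7 (-0.05) was not called.

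Prmt6 was not tested: it had 158 counts in control library 3 and 0 in the other 5 libraries, where a count of 0 allows up to 3 counts. The authors' deposited table gives Prmt6 a log2 fold change of -8.35 and lists it as down, and that value rests on the 1 library. The other untested members were Kdm4d, with 7 counts over each group, and Setdb2, with 6 in control and 8 in lactate.

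Of the 8 SMYD and other SET domain proteins, 2 rose and 6 fell (1 higher and 7 lower with library totals, 1 higher and 5 lower with the length trend removed). SETD7 methylates H3K4 in vitro and many other proteins, and SETD6 methylates the RelA subunit of NF-kB. Setd7 read 17.9, 24.9 and 20.8 CPM in control and 2.58, 2.35 and 3.88 CPM in lactate (-2.84 ± 0.23, adjusted p = 1.3e-05). Setd6 read 15.9, 12.3 and 11.7 CPM in control and 2.18, 2.07 and 1.78 CPM in lactate (-2.73 ± 0.20, adjusted p = 7.8e-06). These are the 2 lowest log2 fold changes among the tested members, and the groups of neither gene overlap.

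Setd5, a SET domain protein linked to HDAC complexes, was among the strongest rises, from 90.4, 103 and 99.5 CPM to 341, 345 and 382 CPM (1.87 ± 0.10, adjusted p = 2.3e-06, 1.01 with library totals). Smyd4 rested on few reads, with 126, 145 and 170 counts in control and 3, 4 and 51 in lactate. Lactate library 3 stands apart there: the log2 fold change was -2.05 ± 0.75 (adjusted p = 0.039) with it, and -4.18 without it. Leaving out any other single library lost the call for Smyd4, and with the length trend removed Smyd4 had -1.91 and was not called. Setd4 (-0.74 ± 0.16, adjusted p = 0.0035), Setd3 (-0.62 ± 0.12, adjusted p = 0.0019), an actin histidine methyltransferase, and Smyd5 (-0.46 ± 0.16, adjusted p = 0.031) fell too.

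Smyd2, a lysine methyltransferase of histones and p53, changed direction with the scaling. It read 51.9, 50.3 and 51.6 CPM in control and 68.7, 69.9 and 56.1 CPM in lactate (0.34 ± 0.11, adjusted p = 0.028), was called lower with library totals (-0.53), and was not called with the length trend removed (0.13).

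Among the other JmjC domain proteins, Jmjd6 rose from 16.9, 18.5 and 17.5 CPM to 51.3, 47.3 and 43.5 CPM (1.42 ± 0.11, adjusted p = 1.2e-05, 0.56 with library totals). Its product hydroxylates lysines of splicing factors. Jmjd8 rose by 0.98 ± 0.14 (adjusted p = 0.00036), a call that was not kept with library totals. Jmjd4, a hydroxylase of a translation release factor, fell from 2.40, 2.24 and 2.01 CPM to 0.635, 0.611 and 0.734 CPM (-1.74 ± 0.29, adjusted p = 0.00081).

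Paralog ratios compare 2 members within a library, so that library scaling drops out. For 11 pairs, picked after the members' counts were seen, the ratio of read counts did not overlap between groups in 10. No share over other gene pairs was computed to set beside this. Taken singly, 72.2% of all tested genes did not overlap between groups. With 3 libraries a group the exact two-sided permutation test cannot go below p = 0.10, which these 10 reached (0.11 adjusted over the 11 pairs). Kmt5b over Kmt5c moved most, from 3.13 ± 0.0965 to 0.244 ± 0.0288 (SD, n = 3), a 12.9-fold change of the ratio. Kdm1a over Kdm1b went from 6.90 ± 0.411 to 41.4 ± 4.23 (5.95-fold). Kdm3a over Kdm3b went from 0.454 ± 0.0443 to 2.02 ± 0.468 (4.38-fold), so the more counted gene of the pair changed. Kdm5a over Kdm5b went from 1.14 ± 0.0185 to 2.58 ± 0.408 (2.24-fold), and Ezh1 over Ezh2 from 0.847 ± 0.0772 to 0.472 ± 0.0930 (1.81-fold). For Kdm6a over Kdm6b the groups overlap, at 0.902 in control and 0.880 in lactate (exact p = 0.90). The remaining 5 pairs moved by 1.30-fold to 1.69-fold. Count ratios between 2 genes also carry their transcript lengths, so only the change of a ratio is read. A trend of fold change on length does not drop out of that change. With the length trend removed, Kmt2c and Kmt2d had log2 fold changes of -0.30 and -0.18, beside -0.14 and -0.51 with TMM. Kmt5b and Kmt5c had -1.70 and 1.65 with the length trend removed, beside -2.06 and 1.63.

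**Figure D3:**
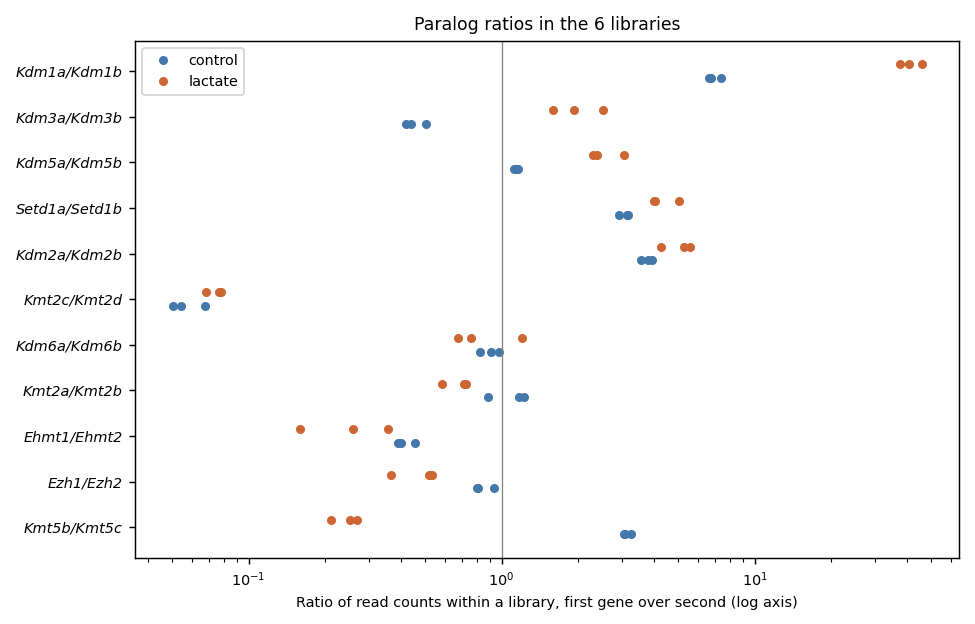
Ratio of read counts within each of the 6 libraries for 11 paralog pairs (first gene over second, log axis), with control and lactate libraries in separate colours. Kmt5b/Kmt5c lies above 3 in every control library and below 0.3 in every lactate library, and only Kdm6a/Kdm6b overlaps between groups.

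Levels of different genes can be compared only per transcript length, here as deposited FPKM, which is scaled by library totals and so carries their shift. The median FPKM over the 61 tested members was 10.7 in control and 6.16 in lactate. Prmt1 was the highest member in both groups, with 99.2 ± 9.74 FPKM in control and 89.7 ± 5.20 FPKM in lactate. Kmt5a followed in control with 62.1 ± 3.96 FPKM and was at 12.3 ± 0.684 FPKM in lactate. Kdm5c was at 45.5 ± 1.28 FPKM in control and 42.2 ± 4.66 FPKM in lactate, a difference within the spread, and Smyd2 at 42.8 ± 1.30 and 29.4 ± 1.42 FPKM. Kmt5b, at 5.67 FPKM in control, was above Kmt5c at 4.57 FPKM, and in lactate the order was reversed, with 0.745 and 7.80 FPKM. By counts, the median member lies at percentile 69.6 of tested genes.

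**Figure D4:**
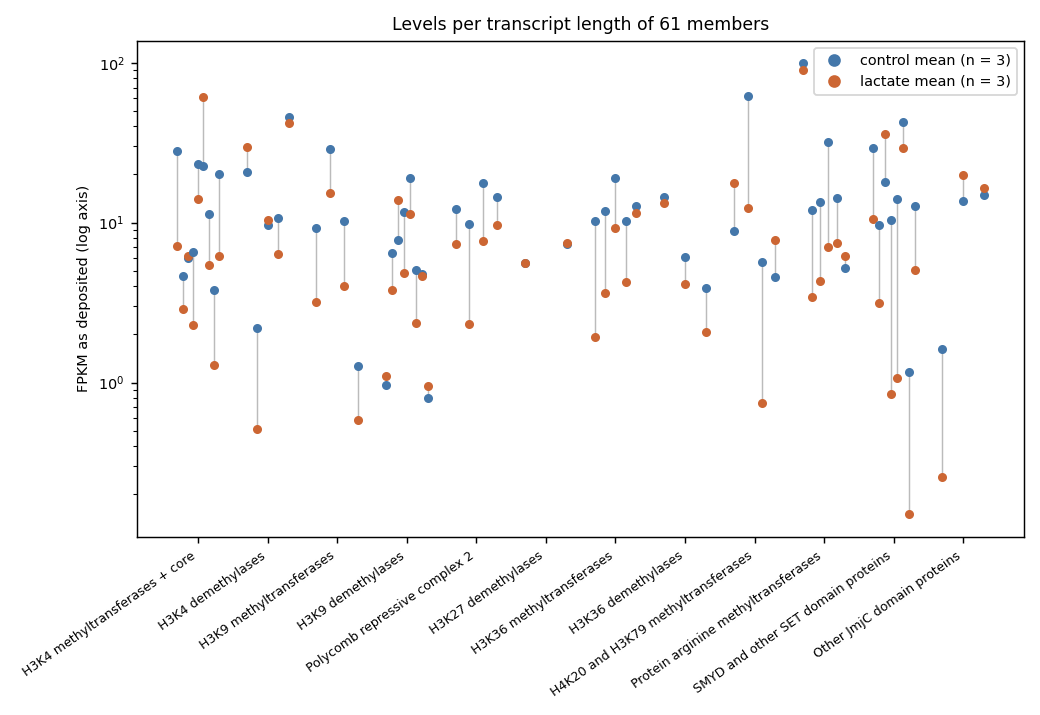
Deposited FPKM (log axis) of the 61 tested genes in control and lactate, by role. Prmt1 is the highest point in both groups, at 99.2 FPKM in control and 89.7 FPKM in lactate.

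Counts and FPKM of a gene should differ by its transcript length and the library total alone, and for a few members they did not. Dividing one by the other gives the length that the FPKM implies, put on a common scale across libraries. For Kmt2e it was 3620, 3540 and 3500 bases in control and 1070, 1080 and 1220 bases in lactate, a 3.15-fold difference. Kmt2e is the only member past 1.5-fold between groups, where 0.346% of the 11852 genes examined are. On log2(FPKM + 1), Kmt2e therefore differed by 1.42 (limma-trend adjusted p = 2.2e-05), while its counts gave 0.66 with TMM and -0.19 with library totals. Across all 6 libraries, 4 of 60 members spanned more than 1.5-fold (6.67%, beside 1.6% of genes). They were Kmt2e, Kmt2d, with 3110 to 11500 bases, Kdm5a, with 5620 to 11100 bases, and Kmt2c, with 1360 to 1450 bases in control and 1990 to 2070 bases in lactate. FPKM differences of these 4 genes hold a change in the length used, and its origin was not tested.

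**Figure D5:**
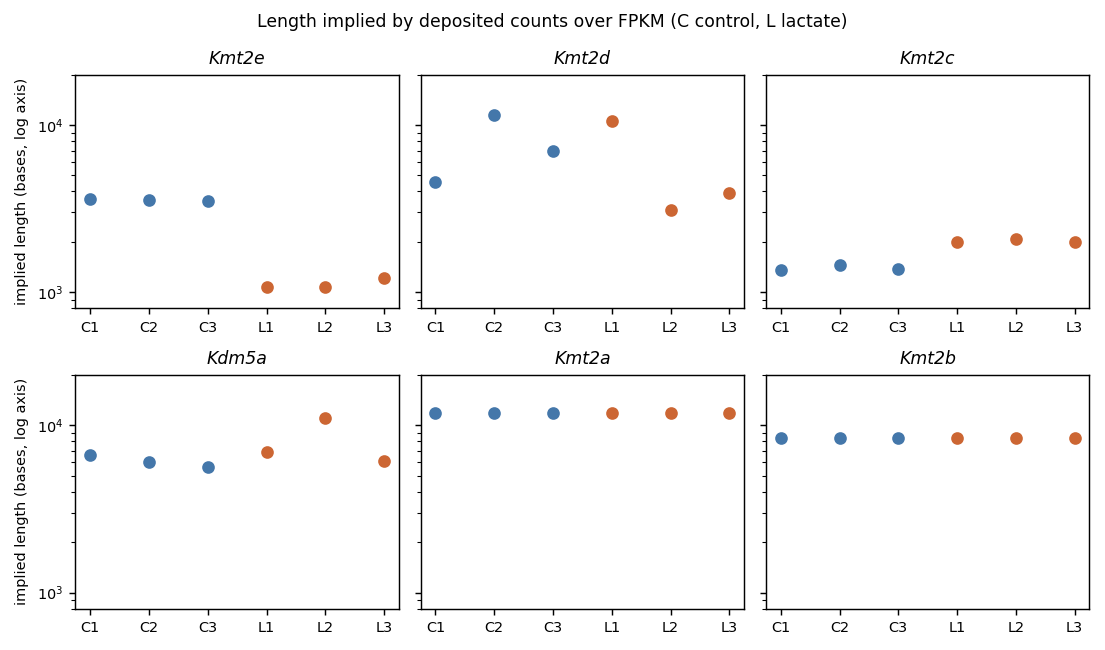
Transcript length implied by deposited counts and FPKM (bases, log axis) in control libraries C1 to C3 and lactate libraries L1 to L3, one panel per gene. Kmt2e falls from 3500 to 3620 bases in control to 1070 to 1220 bases in lactate.

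The authors' deposited table lists 10 of the 64 members as up and 12 as down, beside 15.5% up and 21.3% down of its genes by the authors' selection. Its adjusted p is under 0.05 for 44 members, beside 51.6% of its genes. These backgrounds cover all 17273 genes, including those with too few reads to be tested here, whereas 61 of the 64 members were tested. In the TMM fit 72.1% of tested members were called, beside 66% of all tested genes. The sign of the authors' log2 fold change is that of the TMM fit for 61 of 61 tested members and that of library totals for 47. Both use the same 6 libraries, so these are not independent.

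Genes of the same pathways outside the symbol rule moved in both directions too. Over 9 lists, 23 of the 83 tested genes were higher, 33 lower and 27 not called, with a median of -0.09 (4 higher and 57 lower with library totals). These are 27.7% higher and 39.8% lower, near the 31.4% and 34.6% of all genes, and with library totals 4.82% and 68.7%, beside 12.5% and 61.8%. Among other COMPASS and MLL subunits, 3 of 10 were higher and 5 lower (1 and 8 with library totals). The core subunit Rbbp5 rose by 1.43 ± 0.11 (adjusted p = 1.2e-05), opposite to Wdr5 and Ash2l, and Paxip1 fell by 1.98 ± 0.16 (adjusted p = 1.1e-05). Psip1, which tethers the menin complex to chromatin, fell by 1.67 ± 0.13 (adjusted p = 1.2e-05). Of 7 accessory and histone-binding PRC2 subunits, 3 were higher and 2 lower (1 and 3 with library totals). Phf1 rose by 1.76 ± 0.13 (adjusted p = 9e-06), while Aebp2 fell by 2.34 ± 0.24 (adjusted p = 4.8e-05) and Phf19 by 1.59 ± 0.21 (adjusted p = 0.00018).

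The sister complex PRC1, which ubiquitinates H2A, had 7 of 18 members higher and 7 lower (2 and 10 with library totals). Its catalytic subunit Rnf2 rose by 1.34 ± 0.11 (adjusted p = 1.1e-05), while the H3K27 reader Cbx6 fell by 1.88 ± 0.10 (adjusted p = 2.7e-06). Of 9 readers and partners of H3K9 methylation, 3 were higher and 4 lower (0 and 6 with library totals). The HUSH effector Morc2 fell by 2.05 ± 0.13 (adjusted p = 3.9e-06) and the HP1 gene Cbx3 by 1.42 ± 0.15 (adjusted p = 6.2e-05), and Trim28, the partner of SETDB1, rose by 0.67 ± 0.10 with TMM (adjusted p = 0.00029) and had -0.19 with library totals, which was not called.

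Of 18 partners of single enzymes, 6 were called (33.3%, beside 66% of all genes). Of 8 KDM1A partners, 1 was higher, 2 were lower and 5 not called: Rcor3 fell by 1.64 ± 0.26 (adjusted p = 0.00062) and Rcor1 by 0.82 ± 0.25 (adjusted p = 0.016), and Zmym3 had 0.40 ± 0.13 (adjusted p = 0.024) and was lower with library totals. Of 6 DOT1L partners, 1 was higher (Aff4, 0.82 ± 0.09, adjusted p = 6.9e-05, and -0.037 with library totals, not called) and 1 lower (Mllt1, -1.21 ± 0.11, adjusted p = 2.3e-05). Of 4 PRMT5 partners, only Riok1 was called, with a fall of 1.06 ± 0.13 (adjusted p = 0.00015).

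A list of histone methylation enzymes whose symbols the rule does not cover was mostly lower, with 7 of 9 lower, 1 higher and a median of -2.24. That is 77.8% lower, beside 34.6% of all genes and 45.1% of the longest 40%. The list's median length lies at percentile 90.0. With library totals 8 of 9 were lower (88.9%, beside 61.8%). The list also counts the JmjC histidine hydroxylase genes Riox2 and Riox1. They fell by 3.06 ± 0.22 (adjusted p = 7.9e-06) and 2.34 ± 0.23 (adjusted p = 3.3e-05). The H3K9 and H4K20 demethylase gene Phf8 rose by 1.17 ± 0.15 (adjusted p = 0.00017). Of 12 genes of S-adenosylmethionine metabolism, 4 were higher and 4 lower (0 and 8 with library totals). Ahcy, which clears the product inhibitor S-adenosylhomocysteine, rose by 0.98 ± 0.10 (adjusted p = 4.9e-05). Mtrr, which reactivates methionine synthase, fell by 1.48 ± 0.18 (adjusted p = 0.00013), and Mtap, of methionine salvage, by 0.76 ± 0.12 (adjusted p = 0.00062).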

How the data were processed

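The submitters' processing notes name the builds GRCm38 and mm10, both mouse, while the tables use rat symbols, so which genome was used was not settled. Not given in the sources used here are the aligner, the counter, the annotation and how strand was treated. The authors deposited raw read counts and FPKM per gene for each library, per the file headers. The authors' own log2 fold changes and p-values were deposited too. Raw counts were tested as deposited with edgeR 4.0.16 (R 4.3.3): TMM factors, the filterByExpr filter, group as the only term, the quasi-likelihood test and Benjamini-Hochberg adjustment over all 13747 genes tested, with calls at an adjusted p under 0.05. The procedure was run on simulated counts, with planted changes balanced between directions in a small part of the genes. That setting lacks the composition shift of these libraries, so it cannot tell how TMM handles that shift. SE is the log2 fold change divided by the square root of F. The length trend was a loess fit (span 0.3) of log2 fold change on implied length, removed as an offset. Alternatives were RLE, upper-quartile and no factors, other filters, DESeq2 1.42.0, limma 3.58.1 (voom on counts, and trend on log2(FPKM + 1) and log2(FPKM + 0.1)), a replicate block and leaving out each library. Per-library values are given for called members among the 8 largest rises or 10 largest falls. For these the mean CPM had to reach 1 and the groups not to overlap. Such values are also given, whatever the result, for 23 listed genes except Suv39h1, which was not analysed here. Up to 3 called genes with the smallest p were named per pathway list, and 1 gene that this rule took is not reported here. Per-library values of Kdm7a, Ehmt1 and the untested members were added after they were seen. The members and lists were chosen with earlier results of these data known. Kdm5d, Suv39h1, Prmt8, Smyd1, Smyd3, Setd9 and Rcor2 were not analysed here. Members with paralogs of like sequence, or overlapping or antisense genes, are uncertain, because their reads could be split or merged in counting.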

Additional observations from a re-analysis of the deposited data

How the results depend on the processing

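With library totals, 6 members were higher and 40 lower, and with limma-trend on log2(FPKM + 1) and on log2(FPKM + 0.1), 7 and 40. The counts of members, and of all genes called (9079, or 10214 with library totals), stayed within 1.5 times under the other settings. Log2 fold changes that were positive with TMM turned negative with library totals for Eed (-0.73), Jmjd1c (-0.75), Kdm2a (-0.12), Kdm2b (-0.54), Kdm4a (-0.72), Kdm4c (-0.065), Kdm5b (-0.74), Kdm5c (-0.083), Kmt2a (-0.68), Kmt2e (-0.19), Prmt1 (-0.14), Setd2 (-0.12) and Smyd2 (-0.53). On log2(FPKM + 1) they did for Eed (-0.67), Jmjd1c (-0.65), Kdm2a (-0.16), Kdm2b (-0.48), Kdm4a (-0.68), Kdm4c (-0.043), Kdm5b (-0.70), Kdm5c (-0.11), Kdm6a (-0.029), Kmt2a (-0.53), Prmt1 (-0.14), Setd2 (-0.14), Smyd2 (-0.53) and Suz12 (-0.58). On log2(FPKM + 0.1) the values were Eed -0.74, Jmjd1c -0.78, Kdm2a -0.17, Kdm2b -0.57, Kdm4a -0.72, Kdm4c -0.052, Kdm5b -0.78, Kdm5c -0.11, Kdm6a -0.038, Kmt2a -0.65, Prmt1 -0.14, Setd2 -0.16, Smyd2 -0.54 and Suz12 -0.63. FPKM is scaled by library totals, so both kinds of setting share that scale. A further 17 sign changes, in 13 genes, had neither value called, of 1037 values in 17 settings.

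With 1 library left out, 19 to 21 members were higher, 17 to 25 lower and 8026 to 9407 of all genes were called. Of the 44 called members, 36 kept the call in all 6 fits (19 higher, 17 lower). Ehmt1, Smyd2, Smyd4 and Smyd5 lost it without any 1 library but lactate 3. Kdm7a lost it without control 1 or 3 or lactate 1 or 2, Nsd3 without control 2 or 3 or lactate 1 or 2, Setd1b without control 2 or 3 or lactate 1, and Setdb1 without control 2 or lactate 1 or 2. Without lactate 3, Ezh2 (adjusted p = 0.012) and Kdm3b (0.0016) were called, and without lactate 2, Kdm2b (0.013). The replicate block gave 21 higher and 25 lower members and 8814 genes called. No pairing by number was seen: same-numbered libraries had correlations of 0.018, 0.050 and 0.099, and not every library correlated best with its own number. With so few libraries, such weak correlations cannot tell whether same-numbered libraries share a culture, animal or batch. Depth limits the genes under 1 CPM, such as Jmjd4 in lactate.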
